A study of Mus musculus with 20 samples.

Results

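Epidermal cells deleted for both Wwox and p53 (Trp53) were set against epidermal cells deleted for p53 alone, in young mouse skin before any tumour. The comparison takes 6 of the 20 libraries of the series, 3 from double knockout (DKO) and 3 from p53 knockout (PKO) mice, and all 51123 genes of the count table. Both groups were aged 100 to 120 days, carried K14cre, which drives Cre recombinase in keratinocytes, and had floxed p53 alleles, so deletion of p53 is shared by label, and the floxed Wwox alleles (Wwoxfl/fl) are what the labels add in DKO. Cells were sorted for the tdTomato reporter from dissociated epidermis, and 5 ng of RNA went into each stranded total RNA library. Samples of a group are biological replicates by label, and the labels do not say whether litters were shared. Wwox knockout (WKO, n = 3) and wild-type (WT, n = 3) young epidermis, sorted alike, shared the fit and gave the same Wwox comparison with p53 intact. The titles of the WT samples read only wild type.

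WWOX is a WW domain oxidoreductase encoded across a common fragile site. It binds proteins with a PPxY motif, among them ezrin, p73, JUN and YAP pathway members, and acts as a tumour suppressor in several epithelia. The p53 protein halts the cell cycle or triggers cell death after DNA damage, and its relative p63 maintains the basal layer of the epidermis. Basal keratinocytes divide on the basement membrane. Their daughters move into the suprabasal layers, where they build desmosomes, the cornified envelope and the barrier lipids.

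The targeted genes were read first, in CPM, counts scaled to the size of the library. Wwox (ENSMUSG00000004637) was at 0.971, 0.989 and 7.61 CPM in DKO libraries 1, 2 and 3, and at 9.34, 8.51 and 8.04 CPM in PKO libraries 1, 2 and 3. DKO 1 and 2 were therefore low, and the library labelled DKO 3 lay near the PKO range, which goes against its label. The DKO mean was 3.19 ± 3.83 CPM (SD, n = 3) against 8.63 ± 0.66 (SD, n = 3) in PKO, with an exact two-sided permutation p of 0.1, the smallest that 3 against 3 allows. With the library labelled DKO 3 left out, the DKO mean was 0.98 ± 0.01 CPM (SD, n = 2) and the exact permutation p was 0.2, again the smallest possible.

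Trp53 (ENSMUSG00000059552) was at 3.47, 3.42 and 21.9 CPM in DKO 1, 2 and 3, and at 6.23, 22.7 and 20.2 CPM in PKO 1, 2 and 3. The WT libraries held 32.5, 34.2 and 41.9 CPM. PKO 1 and DKO 1 and 2 were thus the low ones, while the other 3 lay between them and WT. The groups overlapped, with an exact permutation p of 0.3 (0.2 without the library labelled DKO 3). Trp53 RNA was thus uneven within both groups. The log2 difference was -0.78 with all libraries (SE 0.67, edgeR adjusted p = 0.548). Without the library labelled DKO 3 it was -2.25 (SE 0.48, edgeR adjusted p = 0.117), and neither passed. Counts for a whole gene cannot separate a deleted from an intact transcript.

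**Figure D1:**
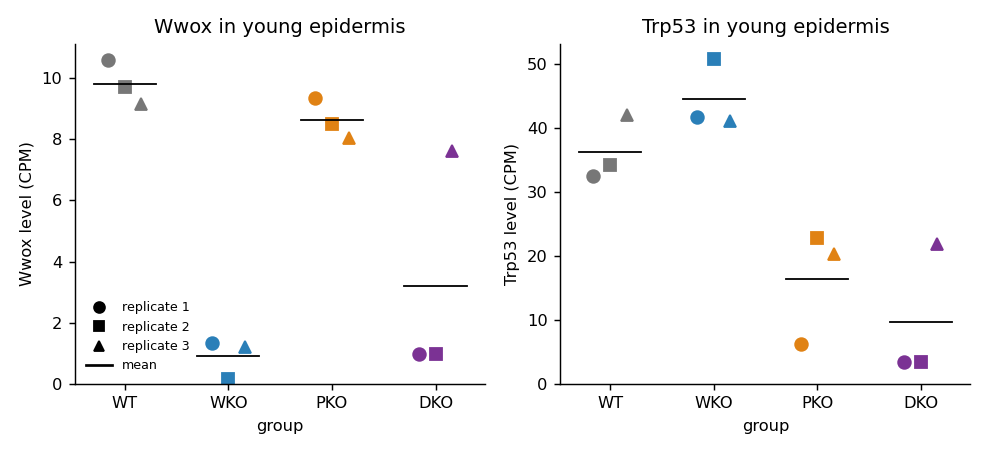
Wwox (left) and Trp53 (right) levels in CPM, 1 point per young library, the symbol giving the replicate and the line the group mean of 3. The library labelled DKO 3 sits at 7.61 CPM of Wwox, beside the PKO libraries, while DKO 1 and 2 sit under 1.

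The library labelled DKO 3 stood apart from DKO 1 and 2 in other ways. Across 16627 genes its correlation with PKO 2 (Pearson r = 0.985 on log2 values) was the highest of all 66 pairs of young libraries. The median squared difference between its counts and those of PKO 2 was 2.91 times what sampling alone gives. The next closest pair (WT 2 and 3) was at 5.57 times. The pair still differed by more than sampling noise, and both were kept as separate libraries. Sampling noise leaves out variation from library preparation, so the ratio cannot show whether the 2 came from separate samples. Total counts ran from 12855983 to 17199262 over the 6 libraries, and mitochondrial ribosomal RNA took 20.4%, 36.8% and 30.1% of the counts in DKO and 23.6%, 29.2% and 16.6% in PKO. Xist was at 339 to 1630 CPM in all 6 and the Y-linked genes Eif2s3y and Ddx3y were at or near 0, so sex did not differ between the groups. Test counts and list summaries below are given with the library labelled DKO 3 and without it, and gene values show it separately.

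The sorted cells held keratinocyte RNA in every library, in unequal company. Interfollicular keratinocyte markers summed to 28900, 25100 and 24900 CPM in DKO 1, 2 and 3 and to 17500, 27200 and 4320 CPM in PKO 1, 2 and 3, so PKO 3 was low. Fibroblast markers (15 genes) summed to 142, 40.3 and 3510 CPM in DKO and to 256, 3120 and 2480 CPM in PKO. They were high in PKO 2, PKO 3 and the library labelled DKO 3, and low in the other 3. Markers of T, NK and dendritic epidermal T cells (25 genes) summed to 144, 251 and 493 CPM in DKO and to 1130, 416 and 5500 CPM in PKO, with PKO 3 highest. In bulk RNA, fewer cells of a type and less RNA per cell cannot be told apart.

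**Figure D2:**
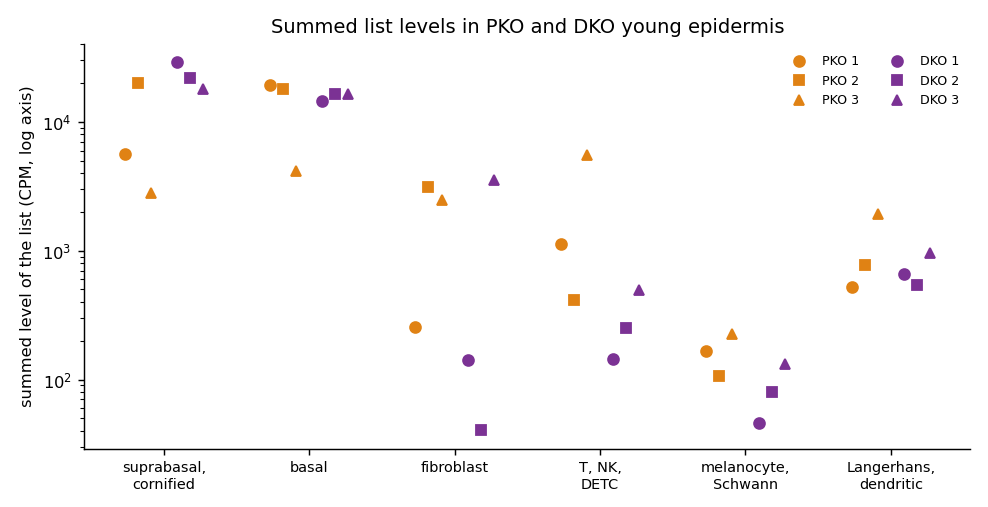
Summed CPM of 6 gene lists (log axis) in the 3 PKO (orange) and 3 DKO (purple) young libraries, the symbol giving the replicate; DETC are dendritic epidermal T cells. Fibroblast sums are 3510 CPM in the library labelled DKO 3 and 142 and 40.3 CPM in DKO 1 and 2, and suprabasal sums are lowest in PKO 3 at 2800 CPM.

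No gene differed between DKO and PKO in edgeR's quasi-likelihood test at an adjusted p under 0.05. With all libraries 0 of 16627 genes passed (0%), 2742 had an unadjusted p under 0.05, and the smallest adjusted p was 0.274. Without the library labelled DKO 3, 0 of 17305 passed (0%), 3704 had an unadjusted p under 0.05, and the smallest adjusted p was 0.0789. DESeq2 called 328 of the 16627 genes (1.97%), 158 higher and 170 lower in DKO, and 1687 of the 17305 (9.75%), 666 higher and 1021 lower, without the library labelled DKO 3. Limma voom with quality weights called 0 in both. A single library decided the edgeR count: without PKO 2, the library most like DKO 3, 403 of 17302 genes passed, 269 higher (1.55%) and 134 lower (0.774%) in DKO. Leaving out both PKO 2 and the library labelled DKO 3 gave 693, of which 332 were among the 403 with the same sign.

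Differences are therefore given as values, and "without overlap" means that every DKO library lay on the same side of every PKO library. Among all genes tested, 8.22% had all 3 DKO libraries above all 3 PKO libraries and 7.34% had them below. With DKO 1 and 2 only, the shares were 18.5% above and 17.1% below. The median log2 difference over all genes was -0.02 with all libraries and -0.05 without the library labelled DKO 3, and 48.5% and 47.2% of genes were positive.

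Genes were named by smallest p among those without overlap and with a mean of at least 5 CPM in the higher group, so that their libraries are apart by choice. Mindy2, a deubiquitinase, was at 49, 52.6 and 45.7 CPM in DKO and 25, 31.9 and 19.8 CPM in PKO, a log2 difference of 0.94 (SE 0.18, edgeR adjusted p = 0.274). Without the library labelled DKO 3 the difference was 0.99 (SE 0.20, adjusted p = 0.117). Uba6, an E1 enzyme that activates ubiquitin, was at 31.6, 32.6 and 25.2 CPM in DKO and 17.4, 20.5 and 17.4 CPM in PKO (log2 difference 0.69). In both genes the library labelled DKO 3 was the lowest of the DKO libraries. Arhgef3 was at 60.1, 53.9 and 39 CPM in DKO and 25.6, 29.4 and 25.9 CPM in PKO (log2 difference 0.92). Matn4, which encodes the matrix protein matrilin-4, was at 12.5, 27.5 and 6.68 CPM against 3.24, 3.77 and 3.47 CPM (log2 difference 2.16). The zinc finger gene Zfp948 was at 10.4, 15.1 and 9.05 CPM against 5.77, 5.44 and 4.02 CPM (log2 difference 1.18). In Arhgef3, Matn4 and Zfp948 the library labelled DKO 3 was likewise the lowest of the DKO libraries. That it lay above PKO in each of these genes follows from how they were chosen.

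On the lower side, Hist1h1c, a linker histone gene whose reads may be shared with its family, was at 99.9, 106 and 136 CPM in DKO and 251, 168 and 274 CPM in PKO (log2 difference -1.02, SE 0.20, edgeR adjusted p = 0.274). Blm, the helicase lost in Bloom syndrome, was at 2.84, 2.89 and 3.09 CPM in DKO and 9.27, 4.39 and 9.55 CPM in PKO (log2 difference -1.40). Bace1, which encodes a secretase that cuts the amyloid precursor, was at 6.31, 6.54 and 9.15 CPM against 20.2, 12.3 and 16.3 CPM (log2 difference -1.15). The DKO values were close together for Blm, and PKO 2 was the nearest PKO library for both genes. Samd14 was at 2.91, 2.89 and 2.98 CPM against 8.11, 5.61 and 8.44 CPM, and Zfp553 at 9.64, 9.89 and 11 CPM against 21.5, 15 and 22.4 CPM. Without PKO 2, 7 of these 10 genes passed in edgeR (Mindy2, Uba6, Hist1h1c, Bace1, Blm, Zfp553 and Samd14, adjusted p 0.0285 to 0.0467). Arhgef3, Zfp948 and Matn4 did not. Over all genes 1.55% were called higher and 0.774% lower there. The 10 were chosen by small p in the same libraries, so these calls add no support.

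**Figure D3:**
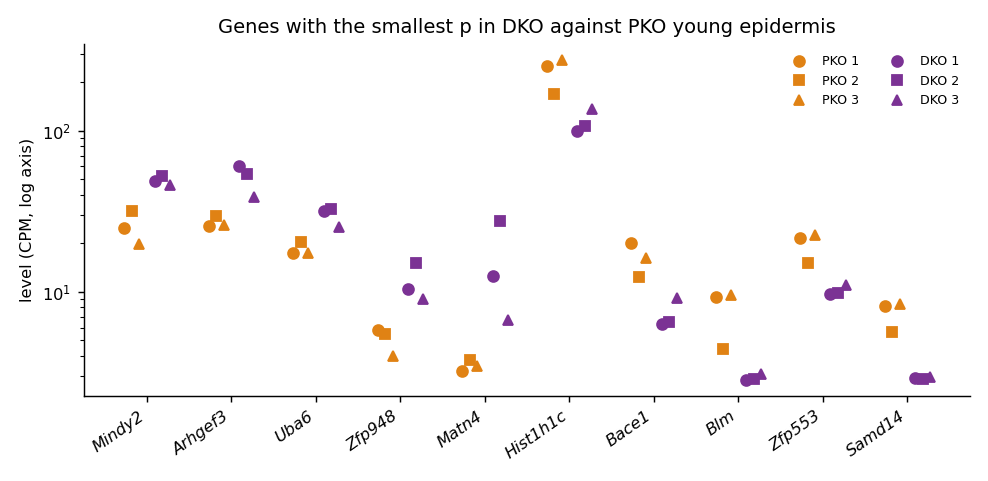
Levels in CPM (log axis) of the 5 genes higher and 5 genes lower in DKO with the smallest p and no overlap, 1 point per library in PKO (orange) and DKO (purple). Mindy2 is at 45.7 to 52.6 CPM in DKO and 19.8 to 31.9 CPM in PKO. None of the 10 genes passed in edgeR, while DESeq2 called all 10, against 1.97% of all genes. The 10 were chosen by small p in these same libraries.

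Other genes led when the library labelled DKO 3 was left out. Dlgap4, a scaffold protein gene, had the smallest adjusted p, at 100 and 110 CPM in DKO 1 and 2 and 48.1, 51.9 and 46.8 CPM in PKO (log2 difference 1.10, SE 0.14, edgeR adjusted p = 0.0789). Its level in the library labelled DKO 3 was 57.8 CPM, nearer to PKO than to DKO 1 and 2. Ccl27a, a keratinocyte chemokine that draws T cells to skin and has near-identical copies in the mouse, was at 196 and 110 CPM, with 29.4 CPM in the library labelled DKO 3, against 14.5, 21.3 and 17 CPM in PKO (log2 difference 3.12 without that library). Hpgds, which makes prostaglandin D, was at 178 and 169 CPM, with 56 CPM in the library labelled DKO 3, against 23.8, 58 and 40.6 CPM (2.09). For all 3 genes that library lay between the other DKO libraries and PKO or within PKO.

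The lower genes of that comparison separated DKO 1 and 2 from every other library of both groups. Gpnmb, a glycoprotein of melanosomes and lysosomes, was at 4.92 and 6.54 CPM in DKO 1 and 2, 19.6 CPM in the library labelled DKO 3 and 28, 26 and 55.6 CPM in PKO (log2 difference -2.68, SE 0.37, edgeR adjusted p = 0.0806 without that library). Peg3, an imprinted zinc finger gene, was at 2.91 and 4.41 CPM in DKO 1 and 2 but 22.5 CPM in the library labelled DKO 3, against 15.2, 21.2 and 17.9 CPM in PKO. Col4a2, a basement membrane collagen, was at 24.3 and 27.8 CPM, then 218 CPM, against 99.7, 184 and 183 CPM. Gprc5b, an orphan receptor gene, and Plcb4, a phospholipase C gene, followed the same order, with 2.08 to 4.49 CPM in DKO 1 and 2, 12.4 and 14.1 CPM in the library labelled DKO 3 and 7.89 to 14 CPM in PKO. None of the 5 passed in edgeR without that library. DESeq2 called all 5 there, against 9.75% of all genes in either direction. With PKO 2 left out as well edgeR called all 5, against 693 of 17239 genes. The 5 were chosen by small p in the same libraries, so these calls add no support.

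Suprabasal and cornified envelope genes had higher values in DKO. Of 32 members tested with all libraries, 30 were positive and the median log2 difference was 1.26. Without overlap were 5 (Asprv1, Spink5, Klf4, Grhl3 and Ovol1), all higher, beside 8.22% of all genes. All 33 tested were positive without the library labelled DKO 3, and the median was 1.58. Of these 13 were higher without overlap, beside 18.5% of all genes. Asprv1, a protease that processes filaggrin, was at 152, 72 and 53 CPM in DKO and 8.11, 41.3 and 4.07 CPM in PKO (log2 difference 2.38, edgeR adjusted p = 0.274). Spink5, a protease inhibitor of the cornified layer, was at 417, 276 and 190 CPM against 63.5, 170 and 19 CPM. Krt10, the main suprabasal keratin, was at 10600, 7880 and 6490 CPM against 1660, 7280 and 631 CPM, so PKO 2 lay within the DKO range. The summed list was at 29000, 21800 and 18000 CPM in DKO and 5680, 20200 and 2800 CPM in PKO, and PKO 3, the lowest, also held the fewest keratinocyte markers; their part in the result was not tested. Without PKO 2, 12 of 33 members were called higher by edgeR and 0 lower, against 1.55% and 0.774% of all genes. PKO 2 was the PKO library whose sum lay within the DKO range, so calls made by leaving it out add no support.

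Junction and barrier lipid genes also had higher values in DKO. Desmosome genes had a median log2 difference of 0.89 (15 of 18 positive) and of 1.04 without the library labelled DKO 3, with 1 and 10 of 18 higher without overlap, beside 8.22% and 18.5% of all genes. Dsc2, a desmosomal cadherin, was at 24.4, 32.5 and 4.22 CPM in DKO and 3.18, 4.56 and 2.92 CPM in PKO, high in DKO 1 and 2. Jup, which encodes plakoglobin, was at 1080, 920 and 704 CPM against 443, 790 and 234 CPM. Adherens and tight junction genes had a median of 0.57 (26 of 32 positive) and of 0.65, with 3 and 13 of 32 higher without overlap, so that in both lists the count with all libraries was near or under the share over all genes. Among them Afdn, which encodes afadin, was at 709, 723 and 371 CPM against 420, 395 and 162 CPM, and the desmosomal gene regulator Grhl1 was at 244, 228 and 153 CPM against 86.8, 164 and 52.1 CPM. Skin barrier lipid genes had a median of 0.80 (19 of 22 positive) and 0.95, with Aloxe3, a lipoxygenase of the barrier, at 10.6, 12.2 and 4.32 CPM against 0.908, 4.91 and 0.553 CPM. The library labelled DKO 3 lay below PKO 2 in Aloxe3. In edgeR 0 members of the 3 lists passed, with or without that library. Without PKO 2, edgeR called 2 desmosome, 5 adherens and tight junction and 4 barrier lipid genes higher and 0 lower, against 1.55% and 0.774% of all genes. PKO 2 had the highest sum of the PKO libraries in each of the 3 lists, so calls made by leaving it out add no support. The desmosome sums in PKO were 9790, 16200 and 3260 CPM and were lowest in PKO 3, as the keratinocyte marker sums were; the part of those markers in the result was not tested.

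Basal keratinocyte genes gave no such order. The median log2 difference was 0.08 (13 of 20 positive) and 0.03 without the library labelled DKO 3. Among all 6 libraries 0 of 20 members were without overlap, beside 8.22% higher and 7.34% lower of all genes. Trp63, the regulator of the basal layer, was at 702, 762 and 486 CPM in DKO and 475, 497 and 154 CPM in PKO. Itgb1, the beta 1 integrin that anchors basal cells, was at 90, 101 and 144 CPM against 174, 138 and 153 CPM. Wound keratinocyte and stress genes had a median of 0.80 (17 of 23 positive) and 0.66, with 5 of 23 and 7 of 24 higher without overlap, beside 8.22% and 18.5% of all genes. Krt17, a keratin of injured epidermis, was at 2830, 1850 and 1110 CPM against 1230, 1000 and 450 CPM, and Stat3, a transcription factor of wound repair, was at 301, 321 and 232 CPM against 144, 194 and 117 CPM. Hair follicle genes had medians of -0.63 and -0.39, and sebaceous gland genes of -0.11 and -0.22. Fads2, a fatty acid desaturase of sebaceous cells, was at 2.5, 2.89 and 7.92 CPM against 16, 4.39 and 44.6 CPM.

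Immediate early genes, which encode transcription factors and feedback regulators induced within minutes of a stimulus, had higher values in all 3 DKO libraries. Of 24 members, 23 were positive, the median log2 difference was 0.74, and 13 were higher without overlap, beside 8.22% of all genes. The median was 0.81 without the library labelled DKO 3, with 15 of 24 higher without overlap, beside 18.5%. The summed list was at 21400, 18900 and 16400 CPM in DKO and 10300, 14600 and 8600 CPM in PKO. Within PKO it was highest in PKO 2 and lowest in PKO 3, as the keratinocyte marker sums were. The part of those markers, and of cell dissociation and sorting, in these values was not tested. Myc, which drives growth and proliferation, was at 403, 300 and 216 CPM against 101, 188 and 47.8 CPM (log2 difference 1.45, SE 0.41, edgeR adjusted p = 0.274). Jun, an AP-1 subunit, was at 2690, 2700 and 2060 CPM against 1650, 1760 and 1170 CPM. Btg2, an antiproliferative gene that p53 also induces, was at 601, 495 and 394 CPM against 187, 324 and 231 CPM. Fos, Fosb, Junb, Atf3, Klf4, Klf6, Ier3, Zfp36, Dusp1 and Nr4a1 were the other members without overlap, and Fosl2 was not among them (468, 559 and 330 CPM against 336, 333 and 256 CPM). None of the 24 passed in edgeR with all libraries. Myc passed in edgeR without PKO 2 (log2 difference 2.04, adjusted p = 0.0342) and in DESeq2 with all libraries (adjusted p = 0.0386). PKO 2 held the highest Myc level of the PKO libraries (188 CPM), so the call made by leaving it out adds no support.

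Heat shock chaperones as a list had medians of 0.01 and, without the library labelled DKO 3, 0.09, with 2 and 5 of the 18 higher without overlap, near the 8.22% and above the 18.5% of all genes. Dnajb1, a co-chaperone, was at 472, 401 and 267 CPM in DKO and 180, 238 and 128 CPM in PKO. Hspa1b, an inducible HSP70 gene that shares reads with its near copy Hspa1a, was at 1240, 1750 and 990 CPM against 496, 1000 and 444 CPM, with PKO 2 just above the library labelled DKO 3.

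Cell cycle genes had lower values in DKO. Of 40 members, 38 were negative, the median log2 difference was -0.80, and 16 were lower without overlap, beside 7.34% of all genes. The median was -0.93 without the library labelled DKO 3, with 20 of 40 lower without overlap, beside 17.1%. The summed list was at 417, 562 and 495 CPM in DKO and 857, 572 and 1050 CPM in PKO, so PKO 2 was again nearest to DKO. Plk1, a kinase of mitosis, was at 0.901, 0.837 and 2.47 CPM against 3.37, 3.16 and 5.18 CPM (log2 difference -1.49, SE 0.52, edgeR adjusted p = 0.274). Ccna2, which encodes cyclin A2, was at 2.57, 4.18 and 7.61 CPM against 11.3, 8.42 and 17.8 CPM. Ccnb2, which encodes cyclin B2, was at 2.15, 3.88 and 4.01 CPM against 11.7, 6.4 and 8.65 CPM. Cenpa, the centromeric histone gene, was at 3.54, 4.18 and 6.17 CPM against 10.6, 8.24 and 9.85 CPM. All 4 stood lower in every DKO library, at levels of a few CPM. None of the 40 passed in edgeR, with or without PKO 2 or the library labelled DKO 3, and DESeq2 called 5 lower without that library, against 9.75% of all genes in either direction. T cell marker sums were likewise higher in PKO 1 and 3 (1130 and 5500 CPM) than in PKO 2 (416 CPM) and the DKO libraries (144, 251 and 493 CPM), and their part in the cell cycle values was not tested.

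Genes of cell cycle arrest and DNA repair went both ways. Cdkn2c, an inhibitor of CDK4 and CDK6, was lower at 5.13, 4.41 and 5.35 CPM in DKO and 9.21, 9.38 and 8.54 CPM in PKO, and its relative Cdkn2d was higher at 18, 13.3 and 10.7 CPM against 6.74, 6.14 and 6.74 CPM. Neither overlapped between the groups, and neither passed (edgeR adjusted p = 0.274). DNA damage response genes had medians of -0.16 and, without the library labelled DKO 3, -0.14, with 8 of 33 lower without overlap in each, beside 7.34% and 17.1% of all genes.

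**Figure D4:**
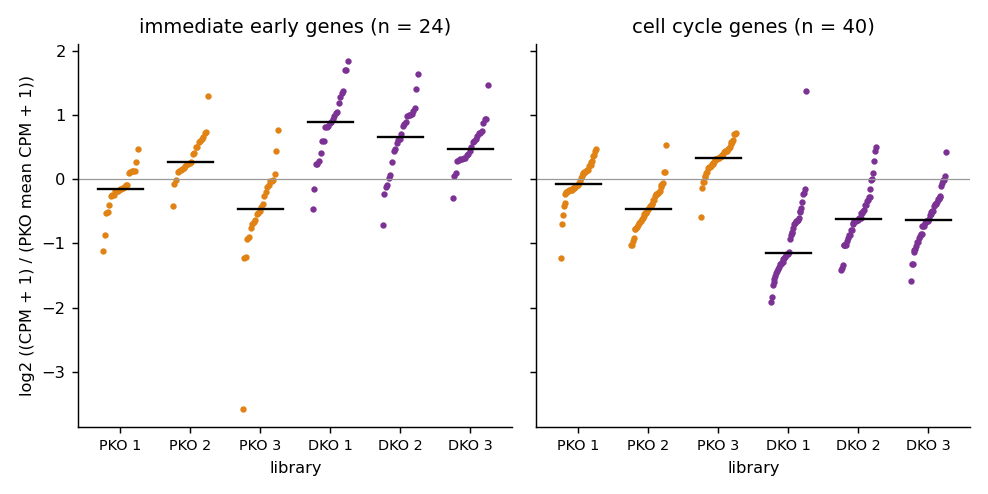
Log2 ratio of each member's level to its mean over the 3 PKO libraries, with 1 CPM added to both, for 24 immediate early genes (left) and 40 cell cycle genes (right); each point is a gene and each line the library's median. Medians of immediate early genes are 0.46 to 0.89 in DKO and -0.47 to 0.26 in PKO, and those of cell cycle genes are -1.15 to -0.62 in DKO and -0.46 to 0.33 in PKO.

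The p53 target genes, measured where both groups lack p53 by label, did not go one way. Of 37 members 25 were positive with a median of 0.16, and without the library labelled DKO 3 18 were positive with a median of -0.01. Mdm2, which encodes the ligase that degrades p53, was at 127, 102 and 105 CPM in DKO and 30.6, 86 and 41 CPM in PKO (log2 difference 1.09, SE 0.33, edgeR adjusted p = 0.274). Trp53inp1, a stress-induced p53 partner, was at 143, 131 and 71.8 CPM against 50, 64.5 and 72.4 CPM. In contrast Bax, a driver of cell death, was at 7.97, 6.24 and 10.6 CPM against 11.4, 10.5 and 19.7 CPM. Ccng1, which encodes cyclin G1, was at 38.1, 24 and 61.9 CPM against 39, 58.2 and 51.7 CPM. Without PKO 2, 3 of 37 targets were called higher and 0 lower, against 1.55% and 0.774% of all genes, Mdm2 among them (log2 difference 1.64, edgeR adjusted p = 0.0271). PKO 2 was the highest PKO library for Mdm2 (86 CPM) and for the summed list (3490 CPM), so calls made by leaving it out add no support.

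Regulators of the p53 family had a median of 0.34 (14 of 18 positive) and 0.46 without the library labelled DKO 3. Sirt1, a deacetylase of p53, was at 62.8, 66.3 and 58.4 CPM in DKO and 28.6, 50.3 and 33.7 CPM in PKO. Usp7, which removes ubiquitin from p53 and Mdm2, was at 198, 206 and 160 CPM against 139, 168 and 133 CPM. Among Wwox and 23 genes of its reported partners, 7 were higher and 2 lower without overlap with all libraries (median 0.18), beside 8.22% and 7.34% of all genes. Without the library labelled DKO 3, 10 were higher and 3 lower (median 0.24), beside 18.5% and 17.1%. Ezr, which encodes ezrin, a linker of membrane and actin, was at 941, 971 and 657 CPM against 435, 687 and 268 CPM. Smad3, a TGF-beta effector, was at 18.6, 29.7 and 31.2 CPM against 42.5, 27 and 79.4 CPM, with PKO 2 inside the DKO range.

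Mesenchymal genes and transcription factors of the epithelial to mesenchymal transition (EMT) depended on the library labelled DKO 3. With it, 26 of 33 mesenchymal genes were negative with a median log2 difference of -0.63, and 1 was lower without overlap, beside 7.34% of all genes. Without it, 29 of 33 were negative, the median was -2.77 (-2.64 with the member at 0 counts set to the floor of 3 counts per library), and 16 were lower without overlap, beside 17.1% of all genes. The 3 that were higher without overlap (Cd44, Tnc and Itgav) were a smaller share than the 18.5% of all genes. EMT transcription factors had a median of -0.79 over 10 tested and of -2.78 over 11 without that library, or -1.59 with the 2 members at 0 set to the floor.

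Twist1, a bHLH factor of EMT and of dermal fibroblasts, had 0 counts in DKO 1 and 2, 6.79 CPM in the library labelled DKO 3 and 0.195, 6.14 and 8.34 CPM in PKO. Against the floor, DKO 1 and 2 were at least 22.4-fold lower than the PKO mean, which rests on PKO 2 and 3. Zeb2, a repressor of epithelial genes, was at 1.25 and 1.29 CPM, then 33.1 CPM, against 3.31, 24.3 and 33.9 CPM. Prrx1, a factor of mesenchyme, was at 0.277 and 0.152 CPM, then 11.7 CPM, against 0.584, 10.1 and 17.8 CPM. All 3 were low in the same 3 libraries, DKO 1, DKO 2 and PKO 1.

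Collagen and matrix genes followed the same split. Sparc, a matrix glycoprotein gene, was at 13 and 13.6 CPM in DKO 1 and 2, 217 CPM in the library labelled DKO 3 and 62.8, 187 and 157 CPM in PKO (log2 difference -3.35, SE 0.74, edgeR adjusted p = 0.121 without that library). Col5a2, which encodes a fibrillar collagen chain, was at 2.84 and 3.73 CPM, then 136 CPM, against 17, 116 and 96.3 CPM. Col6a1, a chain of collagen VI, was at 8.95 and 11.4 CPM, then 169 CPM, against 24.9, 152 and 130 CPM. PKO 1 lay between DKO 1 and 2 and the rest for each.

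Fibroblast markers showed the same split. Their median was -0.74 with the library labelled DKO 3 and -5.81 without it, and all 15 were negative in both. In the second 11 of 15 were lower without overlap, beside 17.1% of all genes. Dcn, the matrix proteoglycan decorin, was at 3.81 and 3.27 CPM in DKO 1 and 2, 316 CPM in the library labelled DKO 3 and 14.7, 285 and 297 CPM in PKO. Pdgfrb, a receptor of fibroblasts and mural cells, was at 0.485 and 0 CPM, then 30.2 CPM, against 2.53, 29.1 and 25.3 CPM. The libraries rich in fibroblast markers were the same ones that were rich in mesenchymal and EMT genes, and the part of fibroblast RNA in the EMT values was not tested.

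**Figure D5:**
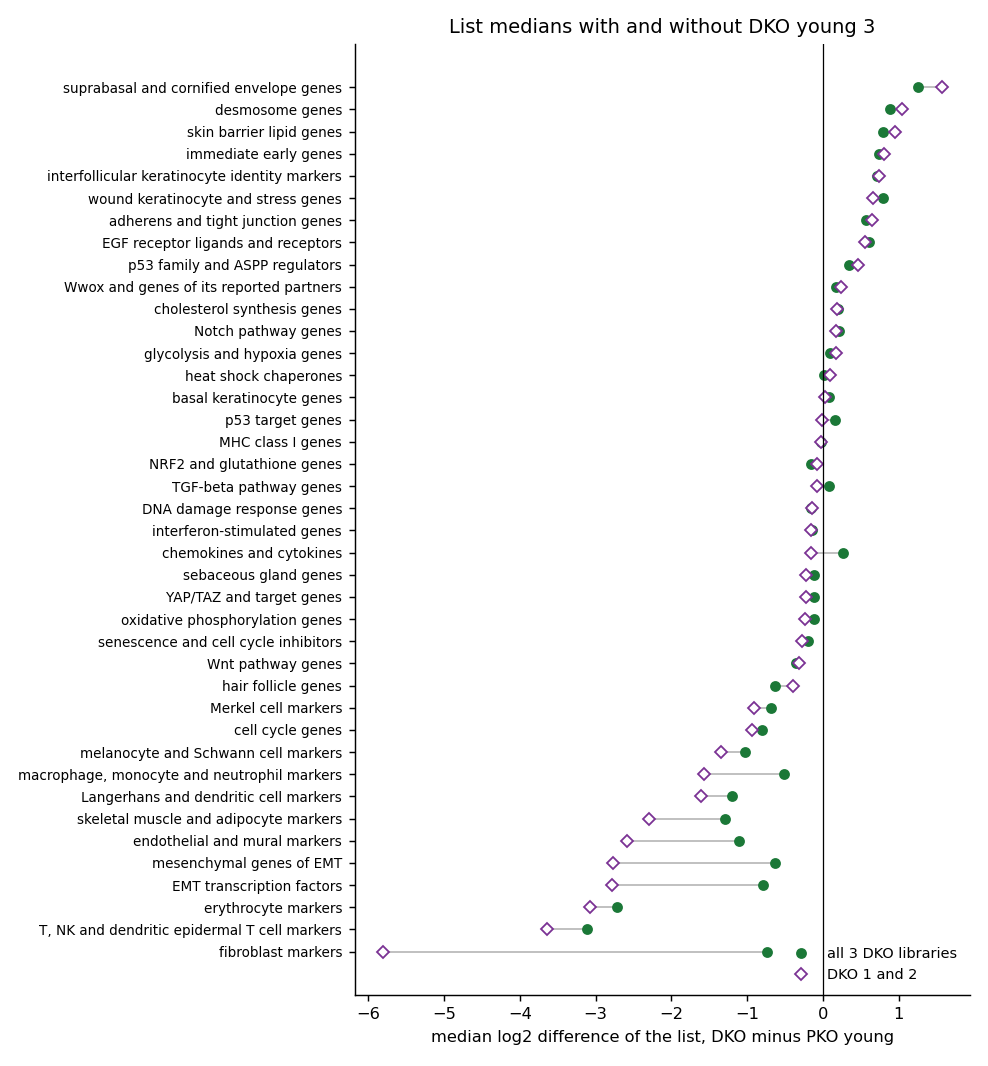
Median log2 difference (DKO minus PKO young) of each gene list, with all 3 DKO libraries (filled circles) and with DKO 1 and 2 only (open diamonds). Fibroblast markers shift from -0.74 to -5.81 and mesenchymal EMT genes from -0.63 to -2.77, while immediate early genes stay at 0.74 and 0.81 and cell cycle genes at -0.80 and -0.93.

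Notch, Wnt, TGF-beta and YAP lists had medians between -0.36 and 0.22 with all libraries and between -0.32 and 0.18 without the library labelled DKO 3. In the Notch pathway (medians 0.22 and 0.18), Lfng, a glycosyltransferase that tunes Notch, was at 5.2, 5.32 and 11.5 CPM in DKO and 27.1, 10.3 and 40.4 CPM in PKO, and the receptor Notch2 was at 293, 300 and 207 CPM against 138, 213 and 96.6 CPM. Wnt pathway genes had medians of -0.36 and -0.32, with 7 and 12 of 35 lower without overlap, beside 7.34% and 17.1% of all genes. Nkd1, a Wnt feedback inhibitor, was at 1.59, 1.6 and 4.01 CPM against 7.46, 5.26 and 10.8 CPM, and Tcf7l1, a Wnt repressor of hair follicle stem cells, was at 3.61, 5.4 and 10.1 CPM against 15.3, 9.3 and 15.1 CPM. TGF-beta pathway genes had medians of 0.08 and -0.08. Id1, a BMP target, was at 185, 163 and 84.3 CPM against 49.7, 56 and 37.6 CPM (log2 difference 1.59, SE 0.39, edgeR adjusted p = 0.274), and the receptor Tgfbr2 was at 42.8, 48.5 and 98.5 CPM against 89.2, 89.3 and 168 CPM. Of the YAP/TAZ genes (medians -0.12 and -0.22), Tead3, a DNA-binding partner of YAP, was at 64.1, 70.3 and 43.8 CPM against 31.4, 43.2 and 16.9 CPM.

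Ligands of the EGF receptor were among the genes with higher values. The list had medians of 0.61 and 0.56, and 5 and 6 of 19 members were higher without overlap, beside 8.22% and 18.5% of all genes. Tgfa, a keratinocyte growth factor, was at 37.5, 25.6 and 12.4 CPM in DKO and 6.74, 11.6 and 1.96 CPM in PKO, and Ereg, which encodes epiregulin, was at 25.2, 9.89 and 11.1 CPM against 1.3, 7.54 and 0.201 CPM. In both, PKO 2 lay just below the lowest DKO library. Ereg passed in edgeR without PKO 2 (log2 difference 4.38, adjusted p = 0.0424). That call left out the PKO library nearest to DKO, so it adds no support.

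Glycolysis, oxidative phosphorylation, cholesterol and NRF2 lists had medians between -0.16 and 0.20 with all libraries and between -0.23 and 0.19 without the library labelled DKO 3. Glycolysis and hypoxia genes had medians of 0.09 and 0.17, with 5 and 11 of 30 higher without overlap, beside 8.22% and 18.5% of all genes. Hk2, a hexokinase, was at 139, 151 and 102 CPM in DKO and 59.1, 73.1 and 46.2 CPM in PKO, and Ndrg1, a hypoxia-induced gene of epithelial differentiation, was at 198, 168 and 117 CPM against 55.1, 103 and 51 CPM. Of 41 oxidative phosphorylation genes, 35 were negative with a median of -0.12 (37 with -0.23 without the library labelled DKO 3), and Sdha, a subunit of succinate dehydrogenase, was at 82.3, 64.4 and 84.1 CPM against 114, 86.5 and 113 CPM. Cholesterol synthesis genes had medians of 0.20 and 0.19, with Sqle, the squalene oxidising enzyme, at 67.4, 44.6 and 32.5 CPM against 22.3, 36.9 and 23.5 CPM. NRF2 and glutathione genes had medians of -0.16 and -0.08, with Gclm, a subunit of the enzyme that starts glutathione synthesis, at 17.6, 19.5 and 22.4 CPM against 44.4, 25.8 and 33.7 CPM.

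Interferon, MHC class I and cytokine lists had medians between -0.14 and 0.27 with all libraries and between -0.15 and -0.02 without the library labelled DKO 3. Interferon-stimulated genes had medians of -0.14 and -0.15, yet Irf1, an interferon-induced transcription factor, was at 532, 482 and 209 CPM in DKO and 102, 152 and 79.7 CPM in PKO (log2 difference 1.88, SE 0.53, edgeR adjusted p = 0.274). MHC class I genes had medians of -0.03 and -0.02. H2-T22, which shares reads with close MHC relatives, was at 105 CPM in DKO 1 and at 10.9 and 16.6 CPM in DKO 2 and 3, against 11.9, 12.7 and 6.48 CPM, so 1 library carried its mean. Chemokines and cytokines had medians of 0.27 and -0.15, and Ccl20, which attracts Langerhans cell precursors, was at 2.57, 2.51 and 1.65 CPM against 0.195, 0.439 and 0.0503 CPM.

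T cell, melanocyte and erythrocyte markers had negative medians, with wide spread among the PKO libraries. All 25 markers of T, NK and dendritic epidermal T cells were negative, with medians of -3.11 and -3.64. Of them 4 and 18 were lower without overlap, beside 7.34% and 17.1% of all genes. Thy1, a marker of dendritic epidermal T cells, was at 15.6, 22.3 and 62.9 CPM in DKO and 107, 50.3 and 478 CPM in PKO. Cd7, a receptor of T and NK cells, was at 9.64, 14.9 and 36.3 CPM against 97.5, 33.2 and 538 CPM. PKO 3 set the PKO mean of both, and PKO 2 lay inside the DKO range. Melanocyte and Schwann cell markers had medians of -1.03 and -1.34, with Dct, an enzyme of melanin synthesis, at 3.54, 9.13 and 47.9 CPM against 56.3, 42.5 and 80 CPM. Erythrocyte markers summed to 11.6 to 22.2 CPM in DKO and 23.8, 28 and 251 CPM in PKO, with PKO 3 highest. Macrophage, monocyte and neutrophil markers summed to 24.1, 22 and 140 CPM in DKO and 28.2, 102 and 121 CPM in PKO, so the library labelled DKO 3 was the highest. Endothelial and mural markers overlapped, at 273, 227 and 281 CPM against 536, 257 and 242 CPM, as did Langerhans and dendritic cell markers, at 657, 543 and 963 CPM against 524, 774 and 1920 CPM.

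Whether the Wwox difference depends on p53 was tested as an interaction, (DKO minus PKO) minus (WKO minus WT). The 2 differences share no library. EdgeR called 0 of 16627 genes (0%) with all libraries, with 3382 at an unadjusted p under 0.05, while DESeq2 called 1326 (7.97%) and limma voom 708 (4.26%). With the library labelled DKO 3 left out, edgeR called 2 of 17305 (0.0116%), with 3557 at an unadjusted p under 0.05, DESeq2 1551 (8.96%) and limma voom 574 (3.32%). Leaving out PKO 3, the library with most T cell markers, raised the edgeR count to 1199 with all other libraries and to 1018 without the library labelled DKO 3. WT 1 held Xist at 0.231 CPM and Ddx3y at 50.8 CPM, unlike the DKO, PKO and WKO libraries, so sex enters the WT side. WT 2 held Xist at 439 CPM together with Eif2s3y at 1.93 CPM and Ddx3y at 4.29 CPM. Both Y-linked genes were at or near 0 in the DKO, PKO and WKO libraries.

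The 2 genes called without the library labelled DKO 3 are predicted gene models, named after their values were seen. Gm21897 (ENSMUSG00000094472) was at 40.7 and 62.5 CPM in DKO 1 and 2, 16.5 CPM in the library labelled DKO 3 and 11.5, 14.4 and 12.7 CPM in PKO, but at 11.8, 8.22 and 11.8 CPM in WKO and 26.3, 29.1 and 18.5 CPM in WT. Its values were thus higher in DKO than PKO and lower in WKO than WT, and the interaction was 3.21 on the log2 scale (SE 0.36, edgeR adjusted p = 0.0492). Gm14636 (ENSMUSG00000073274) followed the same pattern at 8.67 and 12.2 CPM in DKO 1 and 2, 1.65 CPM in the library labelled DKO 3, 1.1, 1.75 and 0.955 CPM in PKO, 0.421, 0.429 and 0.604 CPM in WKO and 3.69, 2.29 and 1.83 CPM in WT (interaction 5.44, SE 0.59, edgeR adjusted p = 0.0492). Both calls lay at the edge of the threshold.

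Other genes with a small interaction p did not pass. Dbp, a clock output gene, was at 27.9, 28.8 and 29.2 CPM in DKO and 75.3, 36.1 and 51.9 CPM in PKO, but at 65.9, 95.8 and 71 CPM in WKO and 30, 22.7 and 34.1 CPM in WT (interaction -2.35, SE 0.37, edgeR adjusted p = 0.111). Its 2 single knockouts were both above WT and the double knockout lay within the WT range. Mettl7b, a methyltransferase of lipid droplets, was at 9.27, 13.5 and 9.66 CPM in WKO and 0.173, 0.143 and 0.59 CPM in WT, but at 0.971, 0.685 and 1.65 CPM in DKO and 5.32, 1.4 and 1.61 CPM in PKO (interaction -6.45). Ackr3, a scavenger receptor of CXCL12, was at 22.5, 27.7 and 31.3 CPM in WKO and 10.7, 7.86 and 12.9 CPM in WT, against 12.5, 15.7 and 26.5 CPM in DKO and 30.8, 30 and 23.2 CPM in PKO (interaction -2.37, edgeR adjusted p = 0.0877 without the library labelled DKO 3). Gpld1, a phospholipase that cuts GPI anchors, stood at 4.21 to 5.22 CPM in WT and at 13.5 to 34.2 CPM in the other 9 libraries (interaction -2.38).

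Across genes the 2 Wwox differences were related but not alike. Over 17305 genes, without the library labelled DKO 3, DKO minus PKO and WKO minus WT correlated with Pearson r = 0.451 and a Spearman coefficient of 0.360, and 60.6% of genes had the same sign. Genes are not independent replicates, and the comparisons share the tissue, the sort and the way the libraries differ in cell makeup, so no p is given. Suprabasal genes had positive medians in both, 1.58 in DKO against PKO and 1.41 in WKO against WT, as did immediate early genes at 0.81 and 1.07. T cell markers had negative medians in both, -3.64 and -2.81. Basal keratinocyte genes had medians of 0.03 and 2.32, and cell cycle genes of -0.93 and -0.08, and no member of either list passed the interaction test in edgeR. Interfollicular keratinocyte markers summed to 22000, 26800 and 25900 CPM in WKO but to 2140, 3520 and 3860 CPM in WT. The part of this unequal keratinocyte RNA in the medians and in the interaction was not tested.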

How the data were processed

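Estimated counts (expected counts) for 51123 genes in 20 libraries were deposited by the authors as 1 table of whole numbers. Per the submitters' processing notes the tools were Trim Galore 0.4.1, FastQC 0.11.5, Salmon 0.13.1 and DESeq2 1.28.1, with the mouse build mm39, with no roles and with the annotation release not given in the sources used here. Estimation splits reads among near-identical genes. Symbols came from an annotation of GRCm38, for names only (48246 genes matched), so no coordinates are given.

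From the counts, the 12 young libraries were fitted with edgeR 4.0.16 (R 4.3.3; TMM scaling, filterByExpr defaults, quasi-likelihood F test, Benjamini-Hochberg at 0.05), and 11 without the library labelled DKO young 3. CPM values use the same scaling, apart from the olfactory and vomeronasal receptor sums, which use plain library totals. Single levels were compared with exact permutation tests (scipy 1.17.1). DESeq2 1.42.0 and limma 3.58.1 (voom), other scalings, filters, library sets and each library left out were alternatives. The edgeR step was tested on simulated data.

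The comparison, the gene lists and the naming rule were chosen with earlier results of these data known. The rule named genes with an official symbol, no overlap and a mean of 5 CPM or more in the higher group, the 5 of smallest p each way where fewer than 5 passed, and up to 4 members per list. The edgeR p-values set each difference against a spread estimated over all the young libraries in the fit, WKO and WT included. With only the DKO and PKO young libraries in the fit, edgeR called 0 genes and the smallest adjusted p was 0.498. No p-value was adjusted over a list alone and no set test was run.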

Additional observations from a re-analysis of the deposited data

Results flagged for a closer look

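In 2 genes the Wwox difference in p53-deleted epidermis differed from that in p53-intact epidermis by a test of the difference itself, without the library labelled DKO young 3. The interaction was 5.44 on the log2 scale for Gm14636 and 3.21 for Gm21897, both with an edgeR adjusted p of 0.0492. DKO 1 and 2 lay above all 3 PKO libraries and all 3 WKO libraries below all 3 WT libraries in both. Both calls were lost under relative log expression (RLE) scaling (edgeR adjusted p = 0.0505) and with the carcinoma and old WT libraries added to the fit (0.136 and 0.0638). They were also lost without PKO 1 (0.15), without PKO 2 (0.063 and 0.0749) and with the replicate block (0.221). With DKO 1 as the only young DKO library left, the interactions were 5.17 and 2.87. With a minimum of 10 CPM Gm21897 was at 0.0681 and Gm14636 was not tested, and DESeq2 kept both (2.98e-11). With the library labelled DKO 3 in the fit the interactions were 4.98 and 2.85 with an adjusted p of 0.111. Both are predicted gene models, and whether other copies share their reads was not tested.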

How the results depend on the processing

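Depth was similar across libraries, and the limits are the spread within groups, the unequal marker sums of the libraries and the library labelled DKO 3. For DKO against PKO young the count of 0 held under every alternative but DESeq2 (328), leaving out DKO 3 and PKO 3 together (2) and single libraries left out (0 to 403, the highest without PKO 2). Without the library labelled DKO 3 the count of 0 moved to 266 with no low-count filter and 1687 with DESeq2, and single libraries left out gave 1 to 693 (1 without DKO 1, 2 without DKO 2, 1 without PKO 1, 693 without PKO 2, 2 without PKO 3). The interaction count of 0 moved to 13 with no filter, 1326 with DESeq2 and 708 with limma voom, and single libraries left out gave 0 to 1199 (2 without DKO 3, 1199 without PKO 3). Without the library labelled DKO 3 the interaction count of 2 moved to 0 with RLE scaling, a minimum of 10 CPM or the carcinoma and old WT libraries added. It moved to 295 with no filter, 1551 with DESeq2 and 574 with limma voom. Single PKO libraries left out gave 1 to 1018 (1 without PKO 1, 1 without PKO 2, 1018 without PKO 3). The causes were not tested.

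Same-numbered DKO and PKO libraries correlated at 0.422, -0.096 and 0.278 in their deviations, and different-numbered ones at -0.473 to 0.237. These values do not settle whether the numbers pair the samples. With the replicate block, edgeR called 0 genes in both comparisons of DKO and PKO and 0 in both interactions, against 2 without the block in the fit that leaves out the library labelled DKO 3.

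The Wwox difference between the means was -5.44 CPM (-7.65 without DKO 3) and that of Trp53 was -6.78 CPM (-12.9 without DKO 3). Of 1612 values of 90 named genes under these alternatives, 1554 kept their direction and side of the threshold, 57 passed it with DESeq2 or with libraries left out, and 1 turned direction (Ccng1, -0.68 to 0.01 with single libraries left out, the highest without DKO 2). RLE and TMMwsp scaling shifted the 40 list medians by at most 0.03, and leaving out DKO 3 moved 5 of them by more than the spread between replicates.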

Other observations

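A search of the young libraries for genes that split the groups by the labelled Wwox alleles was made after values were seen and with no test. In the genes found, the library labelled DKO 3 lay nearer to PKO and WT than to DKO 1 and 2. It often lay just outside the PKO and WT range, toward the floxed side. Gm10167 had 12 counts there, against at most 11 in PKO and WT young and 194 and 70 in DKO 1 and 2. Mgat3 had 8 counts, against at least 14 in PKO and WT young and 0 and 1 in DKO 1 and 2. Gm9008 had 0 counts there and at most 1 in PKO and WT young. Rps13-ps1, a ribosomal protein pseudogene with near-identical copies, had 379 and 173 counts in DKO young 1 and 2 and 282, 541 and 498 in WKO, 10 in the library labelled DKO 3, and 0 in all PKO and WT young libraries. In the carcinomas of the same series it had 454, 454 and 299 counts in DKO and 0 in all 3 PKO. In the 2 old WT libraries it had 183 and 0 counts, so the split did not hold there. The gene ENSMUSG00000119895, which has no symbol, ran the other way, with 1 and 2 counts in DKO young 1 and 2, 24361 in the library labelled DKO 3, 1909, 26200 and 4806 in PKO young and at most 13 in WKO. Old WT broke this split too, with 1 and 2739 counts.

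Serpinb3b, a serpin of the squamous epithelium, had 691 and 841 counts in DKO young 1 and 2 and 401, 98 and 83 in WKO, against 19 in the library labelled DKO 3, 1, 14 and 8 in PKO and 3, 10 and 0 in WT. Close copies in its gene family share reads, so its level is uncertain. In the carcinomas its counts overlapped between DKO (25, 418 and 81) and PKO (53, 12 and 39).

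Counts of olfactory and vomeronasal receptor genes (1728 in the table), which serve smell, summed to 717, 1320 and 583 CPM in DKO young, 678, 641 and 646 CPM in PKO young and 1710, 1940 and 1900 CPM in WT young. Vmn1r76 was at 7.84, 9.89 and 6.38 CPM in DKO and 4.67, 4.39 and 3.37 CPM in PKO, with 6.32, 4.15 and 6.95 CPM in WKO and 15.1, 20.4 and 21.6 CPM in WT. Its interaction was 2.67 on the log2 scale (SE 0.38, edgeR adjusted p = 0.111).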
